A study of Mus musculus with 30 samples.

Results

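WNT signaling is read here through 10 genes that the pathway induces or that restrain it outside the cell: *Tcf7*, *Lef1*, *Axin2*, *Nkd1*, *Nkd2*, *Notum*, *Dkk1*, *Dkk3*, *Sfrp1* and *Sfrp2*. They were chosen by name, with earlier results of these data known, so the shares of them that passed are descriptive. As mouse symbols they were matched to the Ensembl identifiers of a table of 55416 genes. All 10 were found and tested at every time point. In canonical WNT signaling, a WNT ligand binds a Frizzled receptor and LRP5 or LRP6, beta-catenin escapes degradation, and it joins TCF/LEF factors on DNA. Several of the genes switched on in this way feed back on the pathway. In bone, WNT signaling favors the osteoblast over the chondrocyte fate, and osteoblasts and osteocytes secrete inhibitors that limit bone formation.

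Total RNA was sequenced from the callus of left tibiae with a closed, non-stabilized fracture. The P-Apex1KO mice carried *Prrx1*-Cre and 2 floxed *Apex1* alleles (Prrx1-Cre;Apex1 C/C), which removes the DNA repair and redox protein APEX1 from cells that descend from limb bud mesenchyme and leaves it in the blood, vessel and muscle cells of the callus. Their WT littermates were Prrx1-Cre;Apex1 C/+, Apex1 C/C or Apex1 C/+, so that each control had at least 1 floxed allele and some had Cre, and the labels do not say which. All were fractured at 7 to 12 weeks of age and came from a floxed line backcrossed to C57Bl/6 J. The groups held 4 WT and 4 P-Apex1KO mice at 3 days post fracture (dpf), 5 and 3 at 6-dpf, 4 and 3 at 10-dpf and 4 and 3 at 14-dpf, with 18334389 to 43111491 reads counted on genes per library. Both sexes were present in every group except P-Apex1KO at 14-dpf, which was all female beside 1 WT female. The sample names change style between 6- and 10-dpf, so these times were not tested against each other.

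Levels are given as CPM, the counts of a gene scaled to the size of its library, with TMM scaling over the 30 libraries. Differences are log2 fold changes of P-Apex1KO over WT from a quasi-likelihood fit in edgeR that includes sex, and a gene is said to have risen or fallen where the Benjamini-Hochberg adjusted p was under 0.05. *Apex1* itself, the check of the labels, did not differ at 3-dpf (log2 fold change -0.15, adjusted p = 0.927), where replicate 4 of the libraries labelled P-Apex1KO had 34.6 CPM and no WT library more than 33.1. It fell at 6-dpf (-0.67, adjusted p = 0.0071) and at 10-dpf (-0.65, adjusted p = 0.0278). At 14-dpf it did not pass the test (-0.29, adjusted p = 0.367), although the 3 P-Apex1KO libraries (14.2 to 18.6 CPM) lay below the 4 WT libraries (19.8 to 27.2 CPM).

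TCF/LEF factors recognize the core CTTTGA followed by A or T. The 300 bases before the annotated start of each gene's canonical transcript (GENCODE M39 on GRCm39) were searched on both strands for CTTTGAT and CTTTGAA. They held 1 of these in 4 of the 10 genes, all of them feedback genes, against 9.28% of 21627 protein-coding promoters (3.6% for CTTTGAT and 5.91% for CTTTGAA). The matches are shown because all 4 lie before the GENCODE start of a feedback gene. Each line runs 5′ to 3′ on the strand of the gene, with 10 bases on either side and the match in capitals.
*Axin2*: cggctcgcgcCTTTGAAgtgcacagtt
*Nkd1*: tccgcctcgcCTTTGATgggccgctgc
*Notum*: tccgccgccgCTTTGATcccgggggcc
*Nkd2*: ggttctctctTTCAAAGgaggattcct

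The coordinates given here span the 27 bases shown, flanks included. The *Axin2* match (within chr11:108811606-108811632, plus strand) began 22 bases before the start, the *Nkd1* match (within chr8:89247889-89247915, plus strand) 26 bases before it, and the *Notum* match (within chr11:120552056-120552082, minus strand) 53 bases before it. The *Nkd2* match (within chr13:73996019-73996045, minus strand) began 285 bases before the start and reads CTTTGAA on the other strand. The *Nkd1* match falls in the first exon of another annotated transcript of that gene, the *Axin2* match in an intron of a transcript that starts further upstream, and the *Notum* and *Nkd2* matches before all annotated exons of their genes. *Tcf7*, *Lef1*, *Dkk1*, *Dkk3*, *Sfrp1* and *Sfrp2* held neither heptamer in this window. APEX1 is also known as a redox activator of AP-1, whose motif TGANTCA was in none of the 10 windows and in 7.4% of all. These counts depend on the start that is used: in RefSeq's windows on GRCm38 (250 bases before to 50 after the start), which exist for 7 of the 10, only *Dkk1* held a heptamer.

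Across the 4 time points, edgeR called 3 of the genes lower in the P-Apex1KO callus and none higher, while DESeq2 also called *Sfrp1* higher at 10- and 14-dpf and *Dkk1* lower at 10-dpf. At 3-dpf none of the 10 passed with edgeR or DESeq2, and none had an unadjusted p under 0.05, as edgeR called no gene at all (0.0% of 19866; 1216 at an unadjusted p under 0.05). At 6-dpf none passed with either tool, against 5.61% of all genes called lower and 5.31% called higher with edgeR. At an unadjusted p under 0.05 there were 4 of 10, against 26.2% of all genes. At 10-dpf *Tcf7* and *Notum* were lower with edgeR, 2 of 10 against 3.44% of all genes, and none was higher (3.01% of all genes). At 14-dpf *Tcf7*, *Notum* and *Dkk1* were lower with edgeR, 3 of 10 against 7.04% of all genes, and none was higher (4.28% of all genes). The median log2 fold change of the 10 genes was -0.27 at 3-dpf, -0.28 at 6-dpf, 0.04 at 10-dpf and 0.31 at 14-dpf, where the median of all tested genes was 0.00, 0.01, 0.00 and 0.04.

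**Figure D1:**
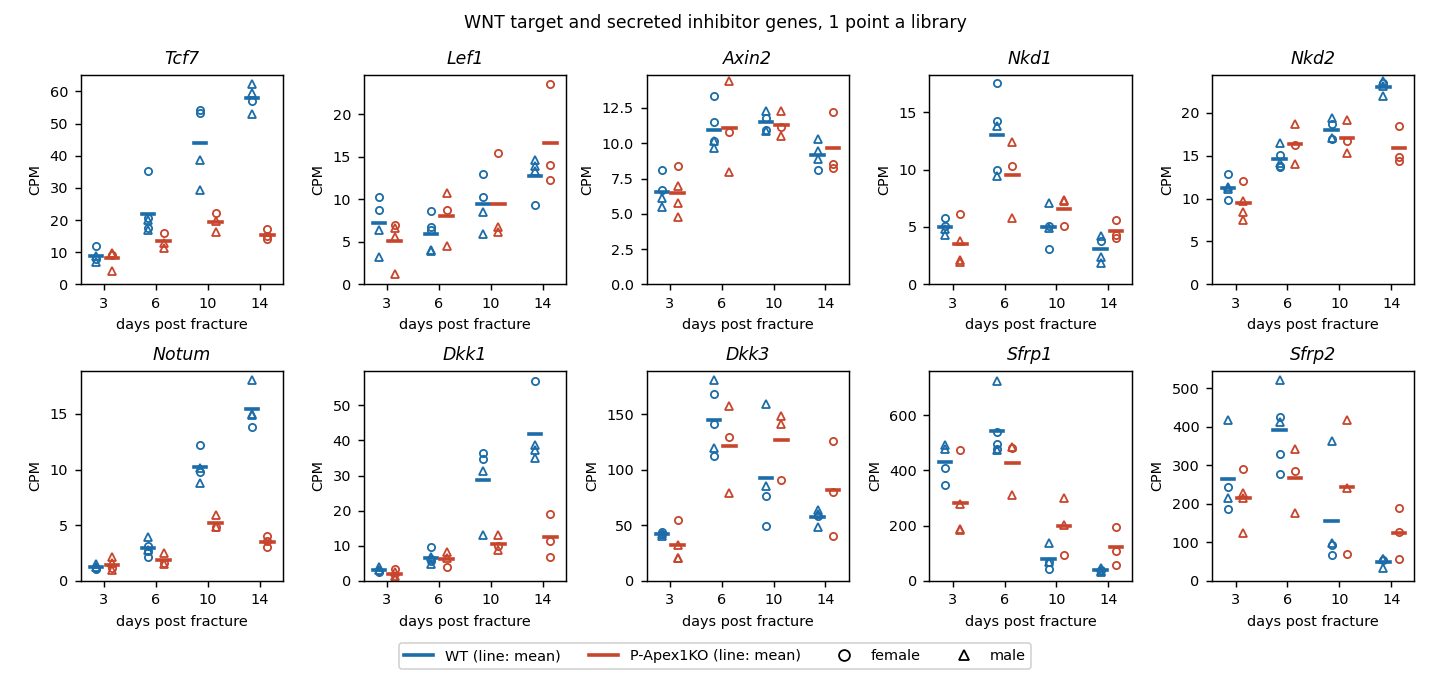
CPM of each of the 10 genes (y axis, from 0) by days post fracture (x axis), with 1 point a library (circle female, triangle male; blue WT, red P-Apex1KO) and a line at the group mean. At 14-dpf the means of *Tcf7*, *Notum* and *Dkk1* were 57.9, 15.4 and 42.0 CPM in WT and 15.4, 3.53 and 12.4 CPM in P-Apex1KO.

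**Figure D2:**
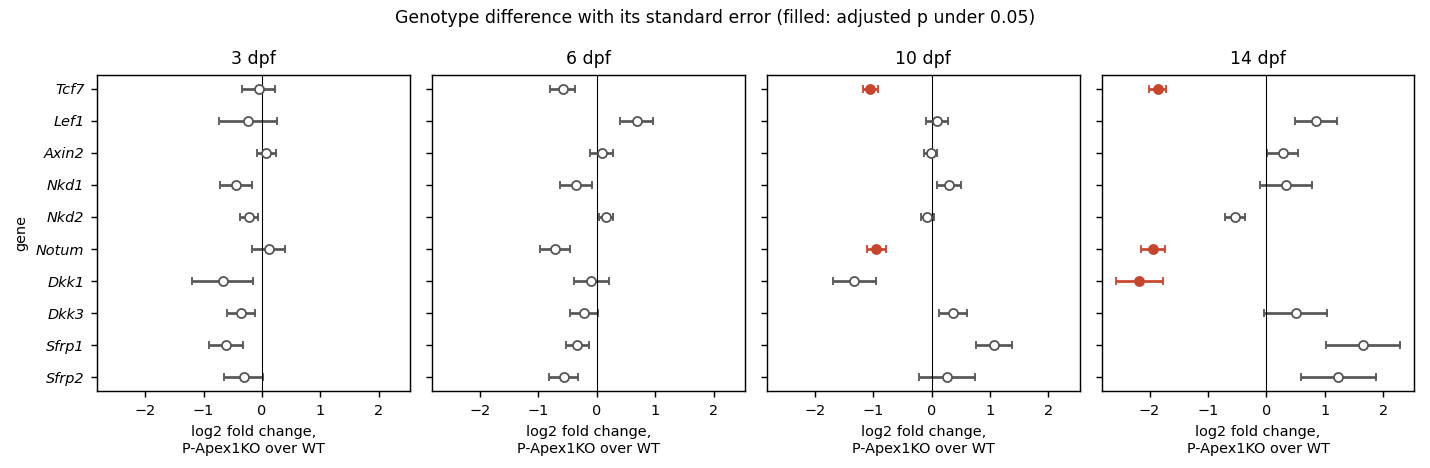
log2 fold change of P-Apex1KO over WT (x axis) with its standard error (bars) for each gene (y axis) at the 4 time points; filled red points passed an adjusted p of 0.05. The 2 filled points at 10-dpf and the 3 at 14-dpf all lie below 0, while *Sfrp1* reaches 1.66 at 14-dpf with a standard error of 0.63.

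*Tcf7* (ENSMUSG00000000782, chr11:52143107-52174619, minus strand) encodes TCF1, a DNA-binding partner of beta-catenin that is also a transcription factor of T cells. At 3-dpf the WT libraries had 6.99, 12.01, 7.94 and 8.70 CPM and the P-Apex1KO libraries 4.23, 9.36, 9.09 and 9.72 CPM, ranges that overlap. At 6-dpf they had 35.1, 16.9, 17.6, 19.96 and 20.5 CPM in WT and 16.0, 11.2 and 12.8 CPM in P-Apex1KO. The groups no longer overlapped at 6-dpf, but the highest P-Apex1KO library was close to the lowest WT library and the difference did not pass the test (-0.59 ± 0.22, standard error, adjusted p = 0.118).

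At 10-dpf *Tcf7* had 53.1, 54.3, 29.3 and 38.7 CPM in WT and 22.0, 19.8 and 16.3 CPM in P-Apex1KO. Every P-Apex1KO library was below every WT library, with the 2 WT females above the 2 WT males, and the log2 fold change was -1.05 ± 0.14 (adjusted p = 0.0099). At 14-dpf WT had 57.0, 59.5, 53.0 and 62.3 CPM and P-Apex1KO 14.1, 17.1 and 15.1 CPM. The groups were far apart, the WT mean was 3.76 times the P-Apex1KO mean, and the log2 fold change was -1.86 ± 0.15 (adjusted p = 0.0008). The only WT female, the 57.0 CPM library on which the model with sex rests, lay among the WT males. The call at 10-dpf was lost without P-Apex1KO replicate 1 (adjusted p = 0.0731) and that at 14-dpf was kept without each of the 6 libraries that could be left out.

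*Lef1* (ENSMUSG00000027985, chr3:130903919-131018005, plus strand), the other TCF/LEF factor of the 10 and like *Tcf7* also expressed in lymphocyte precursors, did not follow it. It overlaps another gene annotated on the same strand, which could take part of its reads. WT libraries had 3.25, 10.2, 8.80 and 6.44 CPM at 3-dpf and 9.39, 13.3, 14.7 and 13.9 CPM at 14-dpf. P-Apex1KO libraries had 1.23, 5.62, 6.997 and 6.61 CPM at 3-dpf and 14.1, 23.6 and 12.3 CPM at 14-dpf. The groups overlapped at every time, and the log2 fold changes of -0.23, 0.68, 0.09 and 0.85 from 3- to 14-dpf did not pass the test (adjusted p = 0.964, 0.164, 0.825 and 0.174). At 14-dpf the model with sex sets the P-Apex1KO females against the only WT female, which had the lowest *Lef1* of the WT libraries. Without sex in the model the log2 fold change was 0.42 (adjusted p = 0.214), and with all 30 samples in one model it turned to -0.17 (adjusted p = 0.808).

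Markers of lymphocytes differed between the genotypes at 6-dpf and had higher sums in P-Apex1KO at 14-dpf. Summed over 18 T cell markers such as *Cd3e* and *Lck*, WT had 142 to 179 CPM and P-Apex1KO 198 to 221 CPM at 6-dpf, 102 to 168 against 154 to 177 CPM at 10-dpf, where the groups overlap, and 95.0 to 111 against 162 to 244 CPM at 14-dpf. Of these 18 genes, 9 rose at 6-dpf (5.31% of all genes), 2 at 10-dpf (3.01%) and 1 at 14-dpf (4.28%), and none fell. Without sex in the model 14 rose at 14-dpf, where 3467 of 18410 genes were called higher. The 18 did not all move together over time. In WT from 10- to 14-dpf *Cd5* rose (1.04, adjusted p = 0.0244), against 6.19% of all genes. *Thy1* (-1.13, adjusted p = 0.0172) and *Bcl11b* (-0.81, adjusted p = 0.0258) fell, against 4.92% of all genes. Summed over 11 markers of B lineage precursors, WT had 262 to 317 CPM and P-Apex1KO 373 to 897 CPM at 14-dpf, and the library with 897 CPM is P-Apex1KO replicate 2, which also had the highest *Lef1*. Of these 11 genes, 4 rose at 6-dpf (5.31% of all genes), and edgeR called none at 10- or 14-dpf. DESeq2 called 1 and 8, where it called 973 lower and 1187 higher of 18910 genes at 10-dpf and 1611 and 1434 of 20228 at 14-dpf. No marker of either list was at 0 in a whole group. The part of lymphocytes in the *Tcf7* and *Lef1* values was not tested.

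Feedback genes of the pathway did not move as a block. *Axin2* (ENSMUSG00000000142, chr11:108811169-108841609, plus strand) encodes a scaffold of the complex that degrades beta-catenin and is a widely used WNT target. At 10-dpf it had 11.8, 10.97, 12.3 and 10.9 CPM in WT and 11.2, 10.5 and 12.3 CPM in P-Apex1KO. At 14-dpf it had 8.08, 10.3, 9.46 and 8.92 CPM in WT and 8.27, 8.52 and 12.2 CPM in P-Apex1KO. The groups overlapped at each of the 4 times, and the log2 fold changes were 0.08, 0.08, -0.02 and 0.28 (adjusted p = 0.962, 0.849, 0.948 and 0.531). At 10-dpf, where *Tcf7* and *Notum* fell, the difference of *Axin2* plus and minus 2 standard errors ran from -0.25 to 0.22.

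*Nkd1* (ENSMUSG00000031661, chr8:89247890-89324577, plus strand) encodes a binding partner of Dishevelled that dampens WNT signaling. It overlaps another annotated gene on its strand, which may share its reads. It was highest at 6-dpf, with 10.0, 9.47, 14.2, 13.8 and 17.5 CPM in WT and 10.3, 12.4 and 5.78 CPM in P-Apex1KO. By 14-dpf it had 3.75, 2.37, 4.21 and 1.88 CPM in WT and 4.26, 4.04 and 5.61 CPM in P-Apex1KO. The log2 fold changes of -0.45, -0.36, 0.30 and 0.33 did not pass the test at any time (adjusted p = 0.869, 0.459, 0.427 and 0.672).

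*Nkd2* (ENSMUSG00000021567, chr13:73966653-73995761, minus strand), the paralog of *Nkd1*, was nearly equal in the genotypes at 10-dpf, with 16.9, 18.7, 19.4 and 17.0 CPM in WT and 16.8, 15.3 and 19.1 CPM in P-Apex1KO. At 14-dpf the WT libraries had 23.5, 22.0, 23.7 and 23.2 CPM and the P-Apex1KO libraries 14.4, 14.9 and 18.5 CPM. The groups did not overlap at 14-dpf, yet the difference missed the threshold (-0.53 ± 0.17, adjusted p = 0.0882), and it passed without P-Apex1KO replicate 3 (-0.66, adjusted p = 0.0285).

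*Notum* (ENSMUSG00000042988, chr11:120541446-120552019, minus strand) encodes a secreted esterase that removes the lipid WNT ligands need for binding their receptors. At 3-dpf it had 1.48, 1.10, 1.17 and 1.23 CPM in WT and 0.978, 2.09, 1.10 and 1.59 CPM in P-Apex1KO, with as few as 31 reads in a library. At 6-dpf it had 2.10, 2.77, 2.68, 3.95 and 3.09 CPM in WT and 1.57, 1.51 and 2.50 CPM in P-Apex1KO. The ranges overlapped at both times, and the difference at 6-dpf was -0.71 ± 0.26 (adjusted p = 0.108).

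At 10-dpf *Notum* had 9.77, 12.2, 8.77 and 10.2 CPM in WT and 4.80, 5.92 and 4.87 CPM in P-Apex1KO. At 14-dpf it had 13.8, 18.01, 15.0 and 14.9 CPM in WT and 3.54, 4.04 and 3.00 CPM in P-Apex1KO. The groups were apart at both times, WT females and males alike, and *Notum* fell by 0.95 (standard error 0.16, adjusted p = 0.0201) and then by 1.94 (standard error 0.21, adjusted p = 0.0017) on the log2 scale. The WT mean was 1.97 times the P-Apex1KO mean at 10-dpf and 4.37 times at 14-dpf. At 10-dpf the call was lost without WT replicate 1 (adjusted p = 0.0634), WT replicate 2 (adjusted p = 0.0576), P-Apex1KO replicate 1 (adjusted p = 0.130) or P-Apex1KO replicate 3 (adjusted p = 0.0537), with log2 fold changes of -0.82 to -1.07 over all 7 libraries left out.

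Secreted inhibitors that bind receptors or ligands went different ways. *Dkk1* (ENSMUSG00000024868, chr19:30523263-30527065, minus strand) encodes a blocker of the LRP5 and LRP6 co-receptors. At 3-dpf it had 3.00, 2.76, 2.41 and 3.94 CPM in WT and 0.410, 1.25, 3.43 and 2.51 CPM in P-Apex1KO, and at 6-dpf 9.50, 6.83, 5.49, 4.80 and 6.07 CPM in WT and 4.00, 6.56 and 8.12 CPM in P-Apex1KO. Both times showed overlap and no difference past the test (-0.67, adjusted p = 0.887, and -0.09, adjusted p = 0.893).

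At 10-dpf *Dkk1* had 34.6, 36.4, 12.9 and 31.2 CPM in WT and 9.80, 13.2 and 8.62 CPM in P-Apex1KO. WT replicate 3, at 12.9 CPM, was the one WT library inside the P-Apex1KO range, and the difference missed the threshold with edgeR (-1.32 ± 0.36, adjusted p = 0.0863). It passed with DESeq2 (-1.33, adjusted p = 0.0002) and with all 30 samples in one model (-1.37, adjusted p = 0.0489). Without WT replicate 3 it passed in edgeR as well (-1.66, adjusted p = 0.0029). At 14-dpf *Dkk1* had 57.0, 37.1, 35.0 and 38.7 CPM in WT and 19.0, 11.4 and 6.71 CPM in P-Apex1KO, with no overlap, and fell by 2.17 (standard error 0.41, adjusted p = 0.0186). The highest WT library at 14-dpf was the only WT female, on which the model with sex rests. Over 9 alternative fits with all samples the log2 fold change ran from -2.17 to -1.72, so the main value lies at the larger end. The WT mean was 3.39 times the P-Apex1KO mean. The *Dkk1* call at 14-dpf was lost without P-Apex1KO replicate 2 (-2.12, adjusted p = 0.0754) and when no filter on low counts was used (adjusted p = 0.101).

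*Dkk3* (ENSMUSG00000030772, chr7:111712904-111758760, minus strand) belongs to the Dickkopf family by sequence but is not known to block LRP5 or LRP6 as *Dkk1* does. It had 42.5, 43.8, 42.0 and 40.3 CPM in WT at 3-dpf, and 20.9, 20.2, 54.2 and 32.0 CPM in P-Apex1KO. At 10-dpf it had 49.7, 76.3, 159 and 85.3 CPM in WT and 90.3, 141 and 149 CPM in P-Apex1KO. The genotypes overlapped at every time, and the log2 fold changes of -0.36, -0.22, 0.36 and 0.50 did not pass the test (adjusted p = 0.873, 0.618, 0.416 and 0.592).

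*Sfrp1* (ENSMUSG00000031548, chr8:23901263-23939648, plus strand) and *Sfrp2* (ENSMUSG00000027996, chr3:83673481-83681623, plus strand) encode secreted Frizzled-like proteins that can bind WNT ligands. *Sfrp1* had 491, 348, 410 and 479 CPM in WT and 188, 185, 475 and 278 CPM in P-Apex1KO at 3-dpf. At 10-dpf it had 44.2, 69.1, 138 and 69.7 CPM in WT and 94.1, 301 and 201 CPM in P-Apex1KO. At 14-dpf it had 39.2, 45.3, 36.8 and 31.3 CPM in WT and 109, 58.7 and 196 CPM in P-Apex1KO. *Sfrp1* was thus on the lower side in P-Apex1KO at 3- and 6-dpf (-0.61, adjusted p = 0.837, and -0.33, adjusted p = 0.324) and on the higher side later (1.08 ± 0.31, adjusted p = 0.0952, and 1.66 ± 0.63, adjusted p = 0.147), and none of these passed. At 14-dpf the groups did not overlap, and the P-Apex1KO libraries differed among themselves by more than the WT libraries did (69.7 against 5.78 CPM, SD, n = 3 and 4). With DESeq2 the differences at 10- and 14-dpf passed (adjusted p = 0.0007 and 0.0078).

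*Sfrp2* had 54.0, 55.1, 57.4 and 32.6 CPM in WT and 127, 57.1 and 189 CPM in P-Apex1KO at 14-dpf. The WT libraries at 10-dpf had 65.5, 92.3, 362 and 98.1 CPM, and the P-Apex1KO libraries 69.5, 416 and 240 CPM. One library in each group at 10-dpf stood far above its lowest, and the log2 fold changes of -0.31, -0.57, 0.26 and 1.23 did not pass the test (adjusted p = 0.914, 0.172, 0.796 and 0.266). The sign at 10-dpf turned when P-Apex1KO replicate 2 was left out (-0.15). WT replicate 3 at 10-dpf was the highest WT library for *Sfrp1*, *Sfrp2* and *Dkk3* and the lowest for *Tcf7*, *Lef1* and *Dkk1*. It had 18200 CPM summed over 13 fibroblast and tendon markers, where the other WT libraries had 6040 to 9190 CPM. It was also the highest for 17 cartilage markers (66000 against 30600 to 40900 CPM) and 18 T cell markers (168 against 102 to 133 CPM). It was the lowest for 17 osteoblast and osteocyte markers (76300 against 78400 to 102000 CPM) and 11 B lineage precursor markers (246 against 263 to 336 CPM). At 14-dpf, P-Apex1KO replicate 2, the lowest of its group for *Dkk3*, *Sfrp1* and *Sfrp2*, had 5100 CPM on these markers, and the other P-Apex1KO libraries had 8360 and 14100 CPM. That P-Apex1KO library also had the highest T cell sum of its group (244 CPM) and the lowest cartilage sum (8600 CPM). The part of any of these cell types in the values of the named genes was not tested.

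Compared per kilobase of annotated exon, a rough way to set one gene against another, the order of the levels differed between the genotypes at 14-dpf. The length joins the exons of all annotated transcripts of a gene. Which transcripts were expressed was not determined, so close ranks are not resolved. In WT at 3-dpf *Sfrp2* (115 ± 45.2 CPM per kb, SD, n = 4) and *Sfrp1* (89.5 ± 13.8) were far above *Dkk3* (6.16 ± 0.22), and *Notum* was last (0.23 ± 0.03). *Sfrp2* and *Sfrp1* overlapped within their spread there, as did *Nkd2* (2.33 ± 0.26) and *Tcf7* (2.32 ± 0.57). In WT at 14-dpf *Sfrp2* (21.6 ± 5.02), *Dkk1* (17.3 ± 4.17) and *Tcf7* (15.1 ± 1.03) led, with *Dkk1* within its spread of both. *Dkk3* (8.42 ± 0.93) and *Sfrp1* (7.91 ± 1.20) followed without separating, then *Nkd2* (4.77 ± 0.16), *Notum* (2.90 ± 0.34), *Lef1* (1.37 ± 0.25) and *Axin2* (1.33 ± 0.13), which did not separate either, and *Nkd1* (0.37 ± 0.13). In P-Apex1KO at 14-dpf the order began with *Sfrp2* (54.0 ± 28.6, n = 3), *Sfrp1* (25.2 ± 14.4) and *Dkk3* (11.95 ± 6.29), as it did in every other group except WT at 14-dpf. *Dkk1* (5.10 ± 2.55), *Tcf7* (4.02 ± 0.39) and *Nkd2* (3.29 ± 0.46) followed, and *Notum* (0.66 ± 0.10) and *Nkd1* (0.56 ± 0.10) came last. The same leading order in WT at 10-dpf was not resolved. There *Sfrp1* (16.6 ± 8.30), *Dkk3* (13.5 ± 6.84), *Dkk1* (11.85 ± 4.45) and *Tcf7* (11.4 ± 3.13) did not separate.

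Between 3- and 6-dpf the cartilage phase began in both genotypes, and many of the 10 genes rose in each. In WT, 5 of 10 rose, against 15.4% of all genes tested, and none fell (15.1% of all genes). These were *Dkk3* (1.72 ± 0.27, adjusted p = 0.0003), *Nkd1* (1.29 ± 0.28, adjusted p = 0.0024), *Tcf7* (1.23 ± 0.24, adjusted p = 0.0014), *Notum* (1.22 ± 0.24, adjusted p = 0.001) and *Axin2* (0.68 ± 0.17, adjusted p = 0.0068), where each value is the log2 fold change of 6- over 3-dpf. In P-Apex1KO, 5 of 10 rose, against 7.1% of all genes, and none fell (6.91%). *Dkk3* (1.95), *Nkd1* (1.47) and *Axin2* (0.77) rose in P-Apex1KO by log2 fold changes close to those in WT. *Dkk1* (1.74, adjusted p = 0.0256) and *Nkd2* (0.79, adjusted p = 0.0028) passed in P-Apex1KO and not in WT (1.05, adjusted p = 0.0749, and 0.34, adjusted p = 0.066). *Tcf7* (0.69, adjusted p = 0.103) and *Notum* (0.41, adjusted p = 0.332) passed in WT and not in P-Apex1KO. The edgeR test of the difference itself called none of the 10, nor did DESeq2, against 1.3% of all genes with edgeR. An unadjusted p under 0.05 was found for 2 of 10, against 12.5% of all genes. The adjusted p was 0.347 for *Nkd2*, 0.352 for *Notum*, 0.605 for *Tcf7* and 0.747 for *Dkk1*.

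Between 10- and 14-dpf, when bone replaces cartilage in the WT callus, *Notum* (0.57 ± 0.14, adjusted p = 0.0216) and *Tcf7* (0.51 ± 0.14, adjusted p = 0.0307) rose in WT, 2 of 10 against 6.19% of all genes. None fell, against 4.92% of all genes. In P-Apex1KO none of the 10 passed with edgeR or DESeq2, against 0.259% of all genes called in either direction with edgeR. An unadjusted p under 0.05 was found for 2 of 10, against 14.3% of all genes. The values of *Notum* and *Tcf7* were -0.55 (adjusted p = 0.219) and -0.56 (adjusted p = 0.179). The genotype difference widened by -1.12 ± 0.26 for *Notum* (adjusted p = 0.0863) and -1.07 ± 0.24 for *Tcf7* (adjusted p = 0.0837), so that none of the 10 passed the edgeR test of the difference, against 0.436% of all genes. At an unadjusted p under 0.05 there were 3 of 10, against 13.1% of all genes. DESeq2 called 2 of 10, where it called 335 lower and 111 higher of 19705 genes. The 2 calls in WT were both lost without WT replicate 3 or 4 at 10-dpf or WT replicate 2 at 14-dpf, and 5 of 10 were called without WT replicate 1 at 14-dpf. For fits with a library left out, the share of all genes is not given, so the 5 of 10 has no background to be read against.

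Osteoblast and osteocyte transcripts were also lower in P-Apex1KO, from 6-dpf on. Summed over 17 osteoblast and osteocyte markers such as *Sp7*, *Ibsp* and *Dmp1*, WT had 23300 to 28600 CPM at 3-dpf, 59300 to 81600 at 6-dpf, 76300 to 102000 at 10-dpf and 130000 to 176000 at 14-dpf. P-Apex1KO had 15500 to 33400, 27400 to 42800, 35600 to 52400 and 33600 to 36000 CPM. Of the 17 markers, 13 fell and 2 rose at 6-dpf (5.61% and 5.31% of all genes), 10 fell at 10-dpf (3.44%) and 12 at 14-dpf (7.04%). The median log2 fold changes were -0.94, -0.92 and -2.02. No marker was at 0 in a whole group. In bulk RNA fewer cells of a type and less RNA per cell cannot be told apart, and the part of osteoblast number in the fall of *Tcf7*, *Notum* and *Dkk1* was not tested.

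Other tissues in the dissected callus differed too. The 17 cartilage markers fell at 6-dpf, all 17 of them (3520 to 6750 against 39500 to 70300 CPM summed), against 5.61% of all genes, and none passed at 10-dpf. At 14-dpf 15 rose and 2 fell (4.28% and 7.04% of all genes), and their sums overlapped (8600 to 12500 against 5450 to 13000 CPM). The 14-dpf counts rest on the only WT female, whose sum of 5450 CPM was the lowest (11100 to 13000 CPM in the WT males). Without sex in the model 4 rose and 2 fell, where 3467 and 3382 of 18410 genes were called higher and lower. Skeletal muscle markers were higher in sum in P-Apex1KO at 6-dpf (15000 to 32300 against 6710 to 12400 CPM), where 14 of 17 rose (5.31% of all genes). At 3-dpf the muscle sums were 9890 to 26400 CPM in P-Apex1KO and 8170 to 10900 CPM in WT. At 10-dpf they were 8490 to 26400 and 4380 to 9980 CPM. The sums overlapped at both times and no muscle marker passed with edgeR. The median log2 fold changes were 0.97 and 1.41, with 0 of 17 below 0 at each time. The muscle sums were also higher at 14-dpf (12200 to 36600 against 3320 to 11800 CPM), where none passed with edgeR. Without sex in the model 9 rose at 14-dpf, against 3467 of 18410 genes called higher. Of the 13 fibroblast and tendon markers, 2 rose at 6-dpf (5.31% of all genes) and 1 fell at 10- and at 14-dpf (3.44% and 7.04%). Their median log2 fold change was 0.40 at 10-dpf and 0.77 at 14-dpf, with 2 of 13 below 0 at each time. The sums overlapped, with 10200 to 17400 CPM in P-Apex1KO and 6040 to 18200 CPM in WT at 10-dpf. At 14-dpf they were 5100 to 14100 and 5160 to 6440 CPM. How far muscle, which lies next to the callus, lowers the share of reads from other cells was not tested.

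**Figure D3:**
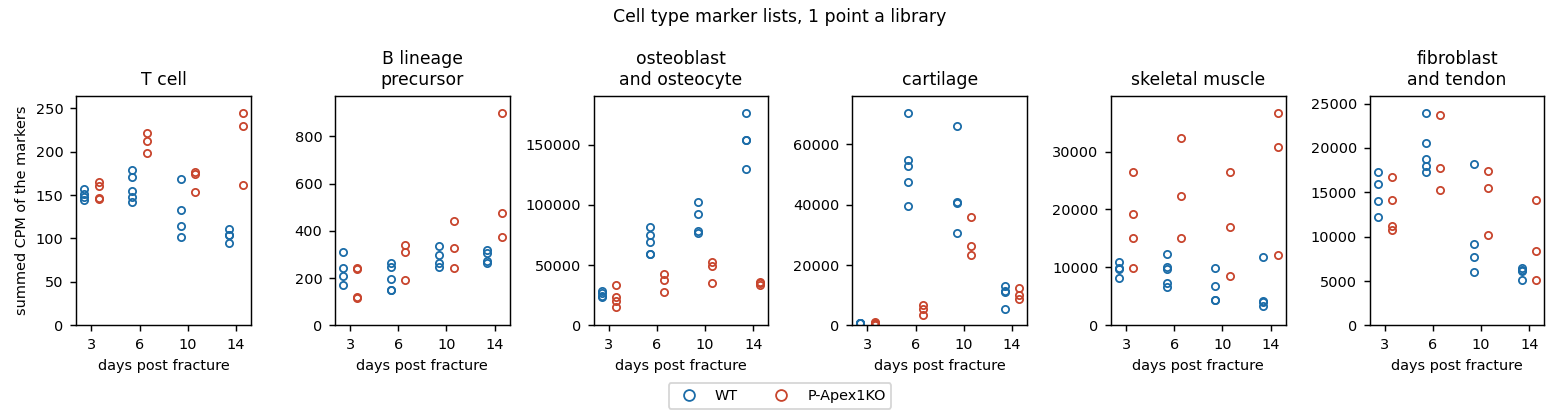
Summed CPM of the markers of 6 cell types (y axes, each from 0) by days post fracture (x axis), with 1 point a library (blue WT, red P-Apex1KO). At 14-dpf the osteoblast and osteocyte sum is 130000 to 176000 CPM in WT and 33600 to 36000 CPM in P-Apex1KO, while the T cell and B lineage precursor sums are higher in P-Apex1KO.

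Genes of the pathway upstream and beside the 10 were counted on 5 lists with edgeR, to be read against the shares of all genes called lower (5.61% at 6-dpf, 3.44% at 10-dpf and 7.04% at 14-dpf) and higher (5.31%, 3.01% and 4.28%). With sex in the model, the 14-dpf counts of all 5 lists rest on the only WT female. Of 16 WNT receptors and co-receptors tested, 2 fell at 6-dpf (none with a replicate block in place of sex), 2 at 10-dpf and 3 at 14-dpf, and none rose. *Ror2* (-0.78, adjusted p = 0.0473) and *Ryk* (-0.49, adjusted p = 0.0274), receptors of noncanonical WNT signals, fell at 6-dpf. *Lrp5*, the co-receptor that controls bone mass, fell by 0.67 at 10-dpf (adjusted p = 0.013) and by 1.42 at 14-dpf (adjusted p = 0.001), and this widening passed the test of the difference (-0.75, adjusted p = 0.045). *Ryk* fell again at 10-dpf (-0.53, adjusted p = 0.0468), and *Fzd3*, a Frizzled receptor, fell at 14-dpf (-1.02, adjusted p = 0.0228).

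R-spondins and their LGR receptors amplify WNT signals by shielding Frizzled from the ubiquitin ligases RNF43 and ZNRF3. Of 8 such genes tested at 6-dpf, the receptor *Lgr6* (-1.49, adjusted p = 0.0082) and another, *Lgr4*, fell and the ligand *Rspo2* rose (1.08, adjusted p = 0.0078). The difference of *Lgr6* and that of *Rspo2* changed between 3- and 6-dpf (-1.995, adjusted p = 0.0206, and 1.92, adjusted p = 0.0037). None of 8 passed at 10-dpf, and at 14-dpf, against 7.04% of all genes, 2 of 9 fell, *Rspo3* (-0.97, adjusted p = 0.0482) and *Znrf3* (-0.58, adjusted p = 0.042), itself a feedback target, and with library size alone as the scaling none fell and 1 rose.

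Among the other secreted inhibitors, *Frzb*, a Frizzled-related protein of cartilage, fell at 6-dpf (-1.91, adjusted p = 0.0076) and *Sost*, which encodes sclerostin of osteocytes, rose (1.36, adjusted p = 0.0111), out of 7 tested. At 10-dpf 1 of 6 passed, *Dkk2*, which rose (0.71, adjusted p = 0.0224). At 14-dpf 2 of 7 fell, *Wif1*, which binds WNT ligands (-1.62, adjusted p = 0.0055), and *Sost* (-1.42, adjusted p = 0.0079), so that *Sost* had the opposite sign at 6- and 14-dpf.

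The beta-catenin core, 21 genes from the destruction complex to the nuclear cofactors, had 3 lower and 1 higher at 6-dpf (5.61% and 5.31% of all genes), 3 lower at 10-dpf (3.44%) and 9 lower at 14-dpf (7.04%). With library size alone as the scaling, 3 were lower and 4 higher at 6-dpf and 4 lower and 1 higher at 14-dpf. *Tcf7l2*, another TCF factor, fell at 6-dpf (-0.65, adjusted p = 0.0056) and had the largest change of the list at 10-dpf (-1.02, adjusted p = 0.0073). *Ctnnb1*, which encodes beta-catenin, fell at 6-dpf (-0.55, adjusted p = 0.0328), and *Dvl3*, a Dishevelled, fell at 10-dpf (-0.60, adjusted p = 0.0135). The corepressor *Tle2* (-1.42, adjusted p = 0.0179) and the TCF factor *Tcf7l1* (-1.32, adjusted p = 0.0083) led at 14-dpf, and the median of the 21 was -0.45 there.

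Other genes known to respond to WNT, some of which are also bone genes, had 2 of 10 lower at 6-dpf (5.61% of all genes), 3 at 10-dpf (3.44%) and 6 at 14-dpf (7.04%), and none higher, although 2 were higher at 6-dpf with library size alone as the scaling. The 6-dpf genes were *Bambi*, a TGF-β pseudoreceptor (-0.93, adjusted p = 0.0118), and *Runx2*, the osteoblast transcription factor (-0.66, adjusted p = 0.0025). At 10-dpf *Ccn4*, a matricellular protein (-0.87, adjusted p = 0.0142), and *Runx2* (-0.87, adjusted p = 0.008) changed most. At 14-dpf *Twist1*, a transcription factor of mesenchyme (-1.87, adjusted p = 0.0011), and *Tnfrsf19*, a TNF receptor family member (-1.85, adjusted p = 0.0221), changed most, and the median of the list was -1.34. Between 10- and 14-dpf the differences of *Apcdd1* (-1.46, adjusted p = 0.0107) and *Twist1* (-1.28, adjusted p = 0.045) widened, with *Bambi* the third gene of 10. At 3-dpf no gene of the 5 lists passed. *Runx2* and *Sost* are counted among the osteoblast markers as well.

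**Figure D4:**
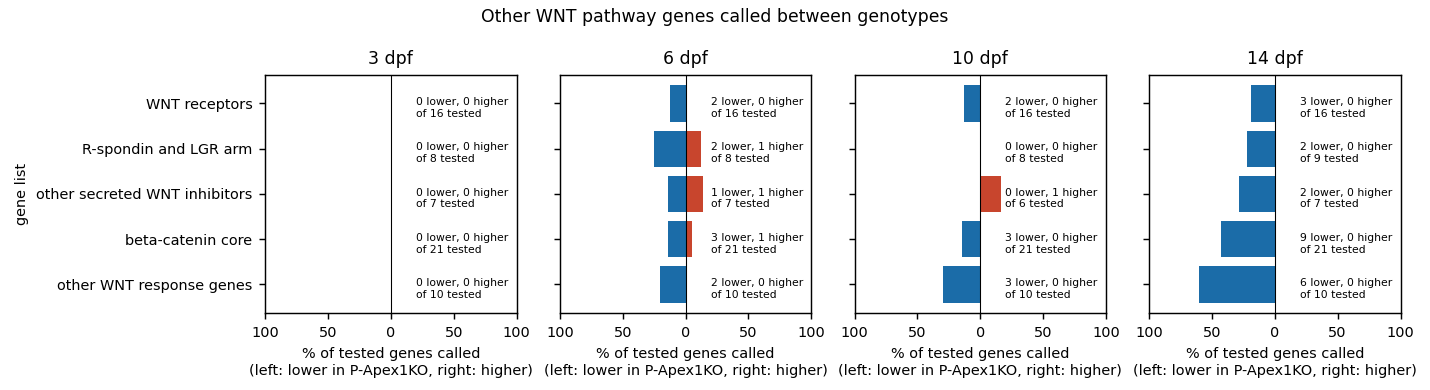
Share of the tested genes of 5 WNT pathway lists that passed an adjusted p of 0.05 (x axis, percent; left lower, blue, and right higher, red, in P-Apex1KO) at the 4 time points, with the counts printed. At 14-dpf 9 of 21 beta-catenin core genes and 6 of 10 other WNT response genes were lower and none was higher, and with library size alone as the scaling these were 4 lower with 1 higher, and 6 lower. The 14-dpf counts rest on the only WT female.

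With the group means of genotype and time removed, some of the 10 genes varied together over the 30 libraries, a description only, since libraries of a group share tissue and preparation. *Dkk3*, *Sfrp1* and *Sfrp2* varied together (Pearson r of log2 CPM 0.92 for *Dkk3* with *Sfrp1*, 0.89 for *Sfrp1* with *Sfrp2*, 0.77 for *Dkk3* with *Sfrp2*). *Tcf7* varied with *Lef1* (0.72) and with *Dkk1* (0.58), although *Lef1* did not pass the test between genotypes. *Notum* varied against *Axin2* (-0.67) and hardly with *Tcf7* (0.14) or *Dkk1* (0.20), the genes with which it fell between genotypes.

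**Figure D5:**
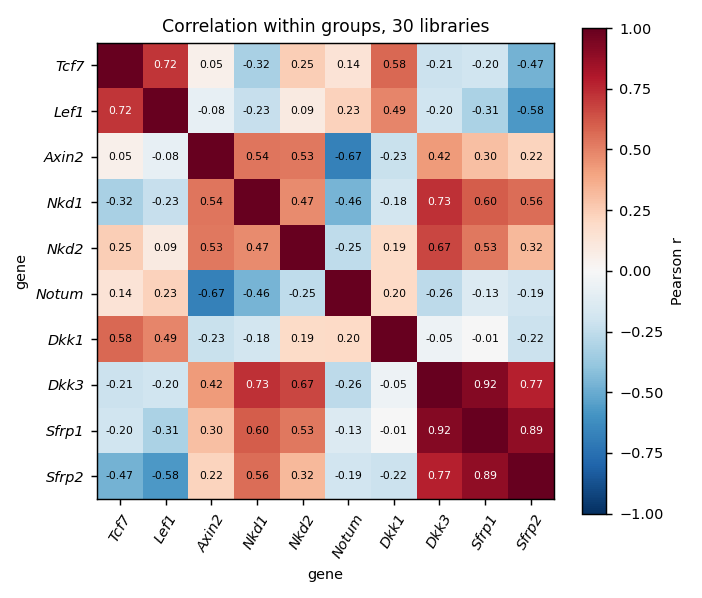
Pearson r between the log2 CPM of each pair of the 10 genes (x and y axis) after the mean of each genotype and time was subtracted, over 30 libraries (red positive, blue negative). *Dkk3*, *Sfrp1* and *Sfrp2* form a block of 0.77 to 0.92, and *Tcf7* and *Lef1* reach 0.72.

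Among the 13796 protein-coding genes whose average over the libraries reached 1 CPM, the closest to each of the 10 within groups were ranked by the same r. The closest to *Tcf7* were *Ppm1e* (0.88), *Col22a1* (0.85) and *Prex1* (0.84), and those closest to *Dkk1* were *Phex* (0.90), *Bmp3* (0.89) and *Dmp1* (0.88), of which *Phex* and *Dmp1* are osteocyte genes on the marker list. *Lef1* was closest to *Bcl11a* (0.96), *Tmem131l* (0.91) and *Ezh2* (0.91), the first a factor of B cell precursors. *Sfrp1* was closest to *Prrx2* (0.94), *Cpxm2* (0.92) and *Steap3* (0.92), *Sfrp2* to *Eeig2* (0.90), *Ogn* (0.89) and *Vegfd* (0.89), and *Dkk3* to *Tnn* (0.94), *Cpxm2* (0.93) and *Igsf10* (0.92). *Nkd1* was closest to *Epb41l4a* (0.85), *Cnn1* (0.85) and *Dact2* (0.84). The closest genes to *Axin2* (*Sox13*, *Tob1* and *Hif1an*, 0.75 to 0.78), *Nkd2* (*Rtl6*, *Spock2* and *Itga11*, 0.76 to 0.82) and *Notum* (*Prpf31*, *Ppan* and *Noc2l*, 0.77 to 0.81) were less close. For *Notum* the r of *Noc2l* was 0.88 over the 16 libraries of 3- and 6-dpf and 0.39 over the 14 of 10- and 14-dpf.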

How the data were processed

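The authors aligned paired-end reads of rRNA- and globin-depleted total RNA to mm39 with STAR 2.7.0d and deposited raw, unnormalized counts per Ensembl v104 gene, made with featureCounts from uniquely mapped, reverse-stranded reads. The labels gave genotype, time and sex. Each time point was fitted with edgeR 4.0.16 in R 4.3.3 (filterByExpr, TMM, genotype and sex, robust quasi-likelihood), adjusted over all genes tested. Models of 2 time points tested changes over time. Log2 CPM used a prior count of 2. GENCODE M39 on GRCm39 held 54749 of the 55416 identifiers. Of 170 listed genes 169 matched. Standard errors are the log2 fold change over the square root of F. The fits were tested on simulated data. The members and lists were chosen with earlier results of these data known. All 10 members were named, and of each list the 2 largest changes past the threshold per time point. Other genes named outside this rule were chosen after their values were seen. Alternatives were DESeq2 1.42.0, other scalings, filters and covariates, all 30 samples in one model and each sample left out. The labels number the replicates, which are taken as separate mice, so spread is read as between mice. Counting error adds most for *Dkk1* and *Notum* at 3-dpf (13 and 31 reads in the lowest library).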

Additional observations from a re-analysis of the deposited data

Results flagged for a closer look

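A library that stood apart from its group by Dixon's criterion was found in 6 of the 50 groups of 4 or 5 libraries examined for the 10 genes, where chance flags about 1 in 20. *Tcf7* had 4.23 CPM in P-Apex1KO replicate 1 at 3-dpf, below the others. *Tcf7* had 35.1 CPM in WT replicate 1 at 6-dpf, above the others. *Dkk1* had 57.0 CPM in WT replicate 1 at 14-dpf, the only WT female at that time. *Sfrp1* had 726 CPM in WT replicate 4 at 6-dpf. *Sfrp2* had 362 CPM in WT replicate 3 at 10-dpf and 32.6 CPM in WT replicate 4 at 14-dpf, the first above and the second below the rest of its group.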

How the results depend on the processing

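No member changed sign where it was called. Between genotypes at 10-dpf the members called were 2, and 4 with DESeq2 or with all 30 samples in one model (*Dkk1* also lower, *Sfrp1* higher). Of all genes, DESeq2 called 973 lower and 1187 higher of 18910 there, and all 30 samples gave 919 and 684 of 20642. At 14-dpf the members called were 3, and 6 without the sex term or with all 30 samples (4 lower, *Sfrp1* and *Sfrp2* higher). More of all genes were called there too, 3382 lower and 3467 higher of 18410 without sex and 3569 and 2619 of 20642 with all 30 samples. At 6-dpf the members called were 0, and 1 with all 30 samples (*Notum*), against 1889 lower and 1188 higher of 20642 genes. The genotype difference changed from 10- to 14-dpf for 0 members, for 2 with DESeq2 or without a filter and for 1 without sex. Of all genes these called 335 lower and 111 higher of 19705, 183 and 24 of 35373, and 77 and 11 of 19162. In WT from 10- to 14-dpf 2 changed, 4 with DESeq2 and 1 with library size alone or all 30 samples. Of all genes these called 1269 lower and 1581 higher of 19705, 1241 and 788 of 19705, and 830 and 1206 of 20642. Same replicate numbers did not mark pairs (correlations of -0.251 to 0.392). A replicate block in place of sex gave 3 members at 10-dpf and 3 at 14-dpf, 3 in P-Apex1KO from 3- to 6-dpf in place of 5, 1 in P-Apex1KO from 10- to 14-dpf in place of 0, and 1 for the difference between 10- and 14-dpf. Of all genes it called, in that order, 529 lower and 750 higher of 19850, 1840 and 1348 of 20228, 752 and 869 of 22264, 564 and 92 of 19705, and 114 and 14 of 19705. With each sample left out, the members called ranged from 0 to 0 at 3- and 6-dpf, 0 to 3 at 10-dpf, 2 to 4 at 14-dpf, 5 to 7 in WT and 3 to 6 in P-Apex1KO from 3- to 6-dpf, 0 to 5 in WT and 0 to 0 in P-Apex1KO from 10- to 14-dpf, and 0 to 0 and 0 to 1 for the differences. Shares of all genes are not given for the fits with a sample left out. At 14-dpf leaving out WT replicate 1 could not be fitted, since sex and genotype then coincide. The causes were not tested.

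Library size alone moved the median of all genes by more than 0.1 at 6- and 14-dpf (to 0.20 and 0.31) and the calls of all genes to 814 lower and 2780 higher and to 766 and 1878, and at 10-dpf to 464 and 849. *Tcf7* (-1.59) and *Notum* (-1.67) stayed lower at 14-dpf. Of all genes, DESeq2 called 1 lower and 77 higher at 3-dpf, and 973 and 1187 at 10-dpf. Without sex 420 and 330 were called at 10-dpf and 3382 and 3467 at 14-dpf, and with all 30 samples 3569 and 2619 at 14-dpf. The replicate block gave 408 and 269 at 6-dpf and 529 and 750 at 10-dpf. Depth limits *Notum* and *Dkk1* at 3-dpf.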
